A study of Mus musculus with 84 samples.

Results

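The guanylate-binding proteins (GBP) and immunity-related GTPases (IRG) were followed as 10 genes, Gbp2, Gbp3, Gbp4, Gbp5, Gbp6, Gbp7, Igtp, Irgm1, Irgm2 and Iigp1, of the 49671 genes in a table of messenger RNA counts. They were taken by gene symbol. All 10 passed the filter on low counts in every tissue. The 84 libraries came from 12 mice, with 7 tissues each: epididymal fat, liver, aorta, heart, skeletal muscle, hypothalamus and hippocampus. The mice were ob/ob, which make no working leptin, or wild type (WT). Both were fed either a high-fat diet (HFD) or a normal one (ND), so that each of the 28 groups of tissue, genotype and diet held 3 libraries. Tissues were taken after 20 weeks. Whether this is age or time on the diet, the background strain and the make-up of the diets are not given in the sources used here.

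GBP and IRG genes encode GTPases that are made in most cells after exposure to interferon and that gather on the vacuoles of bacteria and parasites inside the cell. Interferon gamma switches on genes through short DNA elements called GAS. Type I interferons act through another element, the interferon-stimulated response element (ISRE). Iigp1 is an effector that coats and breaks vacuoles, while Irgm1, Irgm2 and Igtp are regulators that sit on the cell's own membranes and hold the effectors inactive. Among the GBPs, Gbp2 and Gbp5 are anchored to membranes by a lipid tail, and Gbp5 also promotes assembly of the NLRP3 inflammasome.

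In GRCm38, the build of the files, Gbp5 (chr3:142493978-142522344), Gbp7 (chr3:142530342-142550149), Gbp3 (chr3:142560026-142573209) and Gbp2 (chr3:142620602-142638008) lie side by side on the plus strand. Gbp4 (chr5:105115767-105139586) and Gbp6 (chr5:105270702-105293698) lie on the minus strand of a second GBP cluster. Igtp (chr11:58199556-58207591) and Irgm2 (chr11:58199618-58222782) overlap on the plus strand and Irgm1 (chr11:48861968-48871683) lies on the minus strand of the same chromosome. Not all of these genes can be counted apart with equal certainty. Of the 50-base windows of the Gbp6 transcripts, 70.7% also occur in other genes, mainly Gm43302 and Gbp10, and 28.99% of its exon bases are annotated to Gm43302 as well, so the values of Gbp6 are uncertain. The share of exon bases also annotated to another gene was 11.3% for Gbp7 (with Gm43802), 8.01% for Igtp and 4.39% for Irgm2 (with each other), and at most 0.954% for the rest.

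The 250 bases before the start site were taken from RefSeq (GRCm38.p6) as 8 windows of 7 of the 10 genes. No window of Gbp4, Gbp6 or Iigp1 was searched, so the motif counts do not cover these genes. A match to the GAS motif TTCNNNGAA was present in 4 of the 8 windows, against 7.02% of 32841 windows of the same length over all genes. The ISRE core GAAANNGAAA, read on both strands, was present in 7 of the 8 windows, against 2.98% of all windows. Both motifs stood in 4 windows, those of Gbp5, Gbp7, Igtp and Irgm2, against 0.332% of all windows. Not all windows lie outside transcripts as annotated in the count file: 250 of 250 bases of the Irgm1 window are exonic, as are 178 of the second Gbp3 window, 61 of Gbp2, 34 of Gbp5 and 18 of the Gbp3 window shown here. A match describes these letters only and is no evidence of binding. The window of a GBP gene and those of the overlapping IRG pair are shown because they hold both motifs, and that of Gbp3 because this gene was called lower in ob/ob mice in more tissues than any other of the 10. Capitals mark GAS and ISRE matches, and each sequence runs 5′ to 3′ toward the start site on the plus strand.
Gbp7, chr3:142530086-142530335: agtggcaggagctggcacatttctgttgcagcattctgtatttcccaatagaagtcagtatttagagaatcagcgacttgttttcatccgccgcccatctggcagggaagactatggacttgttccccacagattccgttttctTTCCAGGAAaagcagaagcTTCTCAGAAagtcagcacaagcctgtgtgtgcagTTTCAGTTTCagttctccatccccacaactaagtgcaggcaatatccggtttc
Gbp3, chr3:142559794-142560043: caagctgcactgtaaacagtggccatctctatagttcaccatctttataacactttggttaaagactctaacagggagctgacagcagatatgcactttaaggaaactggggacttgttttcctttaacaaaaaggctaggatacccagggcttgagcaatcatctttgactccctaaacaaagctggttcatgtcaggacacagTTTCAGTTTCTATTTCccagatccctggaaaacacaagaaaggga
Igtp, chr11:58199306-58199555: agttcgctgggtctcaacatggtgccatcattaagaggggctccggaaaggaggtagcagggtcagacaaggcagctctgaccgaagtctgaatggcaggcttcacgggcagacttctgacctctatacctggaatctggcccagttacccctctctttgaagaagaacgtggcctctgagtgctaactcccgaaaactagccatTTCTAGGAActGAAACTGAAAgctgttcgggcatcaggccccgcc
Irgm2, chr11:58214727-58214976: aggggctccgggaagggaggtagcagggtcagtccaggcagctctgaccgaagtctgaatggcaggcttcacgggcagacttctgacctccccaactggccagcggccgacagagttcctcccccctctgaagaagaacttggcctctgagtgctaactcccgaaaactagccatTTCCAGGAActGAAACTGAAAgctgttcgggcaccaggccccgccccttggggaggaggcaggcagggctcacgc
The windows of Igtp and Irgm2 are near copies: 194 aligned bases were identical and 21 differed, with 5 gap positions, and the longest identical run was 55 bases. In both, the GAS match stands 2 bases before the ISRE core. In the Gbp3 window, 2 overlapping ISRE cores stand close to the start site and no GAS match was found.

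Total counts per library ranged from about 10499500 to 17040800. By correlation, the nearest neighbour of all 84 libraries came from the same tissue. Abundance within a tissue is given as CPM, counts scaled to a common library size with TMM factors, and "called" or "passed" means an adjusted p under 0.05 in edgeR, a test of counts fitted over all genes of a tissue. Fold changes are log2, and a difference between genotypes is ob/ob minus WT and one between diets HFD minus ND. Shares of all genes are always of genes called in this sense. For counts at an unadjusted p no such share is given. Some libraries stood apart in the genes studied here. The aorta of WT ND mouse 2 had the highest value among 12 aortas for 9 of the 10 genes, and the liver of WT HFD mouse 3 had the highest among 12 livers for 10 of 10. The summed level of 8 B cell markers was 98.6, 1141 and 251 CPM in the aortas of WT ND mice 1, 2 and 3, and that of 20 macrophage markers was 476, 2014 and 769 CPM. Adipocyte markers summed to 23633 to 35582 CPM in WT ND aortas, against 55348 to 70816 CPM in WT ND epididymal fat, and in skeletal muscle they were 2387, 3358 and 5775 CPM in WT ND mice and 20371, 17478 and 21137 CPM in ob/ob ND mice.

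Levels in the 7 tissues of WT mice on ND were compared as CPM per kilobase of exon. Iigp1 in liver was the highest value of the set, with 231, 186 and 205 in the 3 mice. This was 76.9% of the summed level of all 10 genes in liver. The next tissue for Iigp1 was heart with 18.8, 21.4 and 16.96, followed by fat with 4.78, 6.31 and 3.87, and both brain regions were lowest. The liver range did not meet the heart range, nor did the heart range meet that of fat.

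The 3 regulatory IRG genes had the same leading tissue. Igtp reached 24.5, 27.01 and 22.1 in liver against 7.202, 10.97 and 5.95 in heart. Irgm1 reached 15.5, 17.8 and 17.5 in liver against 3.57, 5.17 and 3.92 in heart. Irgm2 reached 15.3, 13.9 and 12.97 in liver and 5.102, 11.6 and 3.69 in aorta, where mouse 2 stood closest to the liver values. Behind liver, the neighbouring tissues heart, aorta, fat and muscle overlapped for many of these genes, and hypothalamus and hippocampus were last in all 4.

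No GBP gene had its highest mean in liver. Gbp2 led in fat with 22.1, 25.4 and 24.9 and in aorta with 11.02, 37.4 and 15.7, which overlap, and its liver values were 2.400, 2.296 and 1.86. Gbp3 stood at 6.72 ± 2.86 (SD, n = 3) in aorta, 6.096 ± 1.200 in heart and 5.69 ± 0.0644 in fat, with overlapping ranges between aorta and heart. Heart held the highest mean of Gbp4, 2.29 ± 0.243, of Gbp5, 1.84 ± 0.752, and of Gbp7, 3.42 ± 0.821. Gbp6 had means of 1.29 ± 0.212 in aorta and 1.26 ± 0.287 in heart, and its muscle values of 0.214, 2.296 and 0.853 spanned both. Aorta led for Gbp2 when mouse 1 or 3 of every tissue was left out, fat led for Gbp3 without mouse 2, and muscle led for Gbp6 without mouse 1. The order of levels between tissues depends on the scaling: with library totals in place of TMM factors, fat took the first place for Gbp3, Gbp4 and Gbp7, while liver kept it for all 4 IRG genes.

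**Figure D1:**
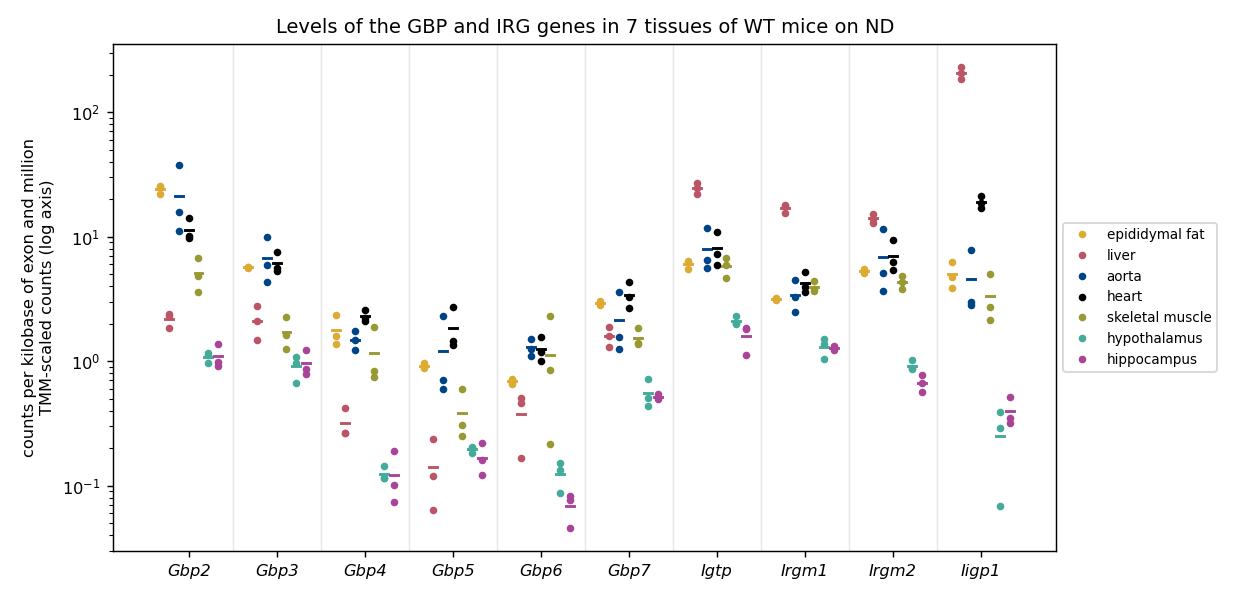
Level of each of the 10 genes in 7 tissues of WT mice on ND, in TMM-scaled CPM per kilobase of exon on a log axis. Points are the 3 mice of a tissue and short lines their mean. The liver points stand highest for Igtp, Irgm1, Irgm2 and Iigp1, and Iigp1 in liver stands above all others.

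In liver, WT mice on HFD had higher levels of 8 of the 10 genes than WT mice on ND, and none was lower. The share of all 13246 liver genes called higher in that comparison was 12%. As in all results here, more cells of one type and more RNA per cell cannot be told apart in whole tissue. The same comparison in ob/ob livers called 0 of the 10 (edgeR, 0 also at an unadjusted p under 0.05, and 0 with DESeq2), with 0.913% of all genes called.

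The largest response was that of Gbp2. Its liver level was 3.97, 3.82 and 3.14 CPM in WT ND mice and 21.2, 15.9 and 36.3 CPM in WT HFD mice. The groups were far apart, and the log2 fold change was 2.73 ± 0.31 SE, adjusted p = 0.00011. In ob/ob livers the values were 10.4, 7.59 and 12.99 CPM on ND and 16.2, 13.1 and 11.1 CPM on HFD, which overlap. All 6 lay above the WT ND livers, and 1 of the HFD values lay above the lowest WT HFD liver. Gbp2 was higher in ob/ob than in WT mice on ND (1.498 ± 0.32 SE, adjusted p = 0.0026) and lower on HFD (-0.85 ± 0.26 SE, adjusted p = 0.038). The call on HFD was lost in 6 of 12 fits that each left out 1 liver, also when WT HFD mouse 3 was left out (-0.47, adjusted p = 0.17).

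Among the other GBP genes, Gbp3 went from 4.49, 5.99 and 3.23 CPM on ND to 14.5, 11.3 and 26.3 CPM on HFD in WT livers (1.91 ± 0.32 SE, adjusted p = 0.0014). The ob/ob livers held 5.36, 3.23 and 5.85 CPM on ND and 3.81, 5.701 and 4.796 CPM on HFD, inside the range of the WT ND mice. Gbp6 had WT values of 1.81, 1.996 and 0.665 CPM on ND and 6.38, 6.203 and 9.08 CPM on HFD (2.25 ± 0.34 SE, adjusted p = 0.00067). Gbp7 rose from 6.997, 5.900 and 4.85 CPM to 13.4, 14.4 and 25.8 CPM (1.58 ± 0.27 SE, adjusted p = 0.0013) and Gbp4 by 1.296 (adjusted p = 0.026). Gbp4 was no longer called without WT HFD mouse 3 (0.74, adjusted p = 0.11). Gbp5, with 3 to 43 counts per WT library, did not pass (1.71 ± 0.59 SE, adjusted p = 0.055).

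The regulatory IRG genes rose as well. Irgm1 was 59.4, 68.4 and 68.02 CPM in WT ND livers and 107, 97.8 and 129.6 CPM in WT HFD livers (0.77 ± 0.102 SE, adjusted p = 0.00028). Irgm2 was 37.1, 33.8 and 32.02 CPM and 59.1, 55.3 and 76.6 CPM in the same groups (0.89 ± 0.12 SE, adjusted p = 0.0003). Igtp was 32.7, 36.1 and 29.9 CPM and 64.1, 48.4 and 112 CPM (1.18 ± 0.25 SE, adjusted p = 0.0055), and without WT HFD mouse 3 its change was 0.77, adjusted p = 0.01. In none of these 3 genes did the WT groups overlap. The ob/ob livers held 49.6, 46.6 and 48.5 CPM of Irgm1 on ND and 52.8, 47.6 and 47.4 CPM on HFD, all below every WT liver.

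Iigp1, the effector (chr18:60376029-60392627, plus strand), did not pass for diet. Its values were 474, 383 and 429 CPM in WT ND and 408, 368 and 626 CPM in WT HFD livers, with overlapping ranges and a diet change of 0.13 ± 0.18 SE, adjusted p = 0.66. In ob/ob livers it was 217, 149 and 177 CPM on ND and 223, 229 and 189.6 CPM on HFD. Every ob/ob liver lay below every WT liver, with a log2 fold change of -1.24 ± 0.19 SE, adjusted p = 0.00023 on ND and -1.13 ± 0.19 SE, adjusted p = 0.0014 on HFD.

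**Figure D2:**
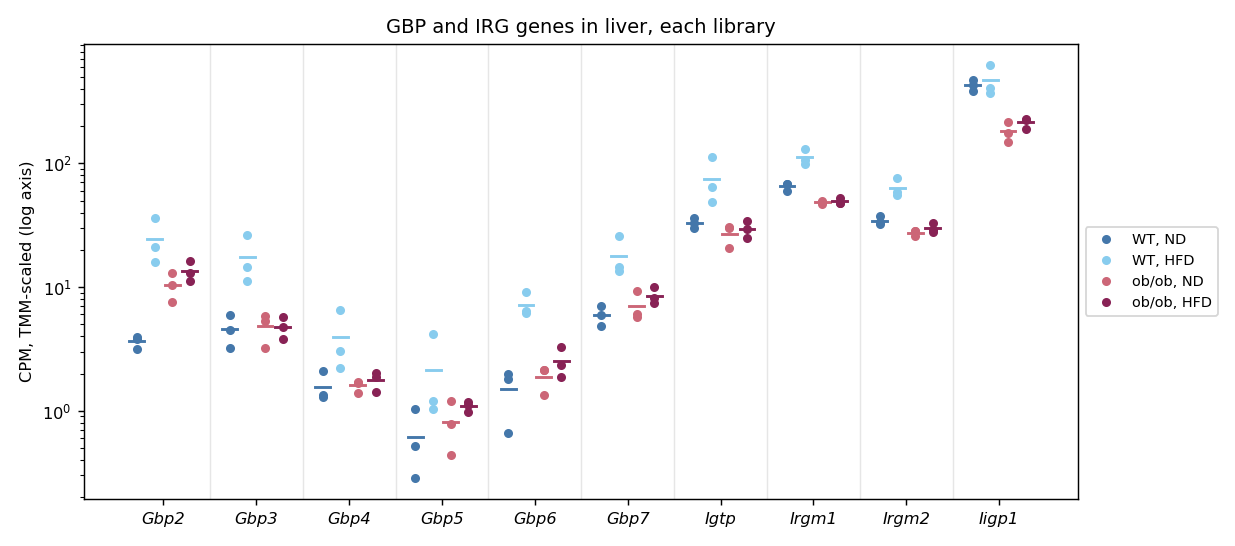
CPM of the 10 genes in each of 12 livers, on a log axis, with TMM-scaled library sizes; points are mice and short lines group means of 3. WT mice on HFD stand above the other groups for most genes, and for Iigp1 both WT groups stand above both ob/ob groups.

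Between genotypes, 9 of 10 genes were lower in ob/ob livers on HFD and none was higher, with 9.85% of all genes called lower. Of these 9 calls, that of Gbp4 (-1.12, adjusted p = 0.046) was lost in 9 of 12 fits that each left out 1 liver. That of Gbp2 was lost in 6 of 12, as given above. On ND, 2 were lower (Irgm1, -0.44 ± 0.103 SE, adjusted p = 0.0052, and Iigp1) and 1 was higher (Gbp2), with 36.4% of all genes called in either direction, so the count on ND is near the background. Over both diets 5 were lower (Gbp3, Igtp, Irgm1, Irgm2 and Iigp1), against 20.7% of all genes. The 2 comparisons on HFD and of diet share the WT HFD libraries. Without WT HFD mouse 3, 7 genes passed for diet in WT livers and 7 for genotype on HFD, and the median log2 fold change over the 10 genes went from 1.44 to 0.80 for diet and from -1.13 to -0.89 for genotype on HFD.

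The diet change itself differed between the genotypes for 5 genes in liver, against 3.96% of all genes called in that direction. The difference, ob/ob minus WT, was -2.35 ± 0.41 SE, adjusted p = 0.0056 for Gbp2, -1.92 ± 0.47 SE, adjusted p = 0.028 for Gbp3 and -1.82 ± 0.48 SE, adjusted p = 0.041 for Gbp6. For Irgm1 it was -0.74 ± 0.15 SE, adjusted p = 0.01 and for Irgm2 -0.77 ± 0.17 SE, adjusted p = 0.018. Gbp3 lost its call in 5 of the 12 fits that each left out 1 liver, and Gbp6 in 9 of 12, while Gbp2, Irgm1 and Irgm2 were called in all 12. The count was 3 without WT ND mouse 1 or 3, ob/ob ND mouse 1 or 3, or ob/ob HFD mouse 1. For Iigp1 the difference was 0.12 ± 0.26 SE, adjusted p = 0.85.

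Other interferon genes were followed in the same livers. Of 21 genes of the type I interferon response, 19 rose on HFD in WT mice and none fell, among them Rsad2 (2.05), an antiviral enzyme, Ifit3 (2.51), an RNA-binding antiviral protein, and Ddx58 (0.99), a sensor of viral RNA. Of 20 genes for interferon-gamma induced chemokines and antigen presentation, 16 rose and 1 fell, led by the peptide transporter Tap1 (1.38), the chemokine Cxcl10 (3.33) and the immunoproteasome subunit Psmb9 (2.001). Of 15 tested genes of interferon-gamma signalling, 8 rose, led by Irf1 (0.87), Irf8 (1.44) and the receptor chain Ifngr2 (0.67). In ob/ob livers on HFD, 20 of 21 type I genes and 9 of 20 chemokine and antigen presentation genes were lower than in WT livers, with Isg15 at -2.09. The median log2 fold change for diet in WT livers was 1.81, 1.34 and 0.35 for these 3 lists, beside 1.44 for the 10 GTPases and 0.019 for all genes tested.

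Markers of cell types were followed in the same livers. For diet in WT mice, 7 of 20 macrophage markers rose and 1 fell, with a summed level of 348, 691 and 212 CPM on ND and 677, 545 and 596 CPM on HFD. Of 14 endothelial markers 2 rose, of 8 adipocyte markers 4 rose, and of 10 hepatocyte markers 7 fell. Only 4 of 20 T, NK and innate lymphoid cell markers and 4 of 8 B cell markers passed the filter, and none of them was called (edgeR). In ob/ob livers on HFD, where 9 of the 10 genes were lower, macrophage markers summed to 667, 1013 and 621 CPM. In that comparison with WT HFD livers, 1 of 20 macrophage markers was higher (Gpnmb, 2.505) and 1 of 4 B cell markers was lower (Cd79b, -1.32). Of 8 adipocyte markers 3 were lower, among them Cfd (-5.31) and Car3 (-1.78), and 2 higher, and of 10 hepatocyte markers 1 was lower (Serpina1c, -1.16). No lymphoid or endothelial marker was called there (edgeR). The part of these cells in the liver results was not tested.

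In heart, ob/ob mice on ND had lower levels of 7 of the 10 genes, and none was higher, with 6.48% of all 13673 heart genes called lower. All 6 GBP genes and Iigp1 fell, while the 3 regulatory IRG genes did not pass. On HFD 5 GBP genes were lower, against 8.36% of all genes.

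Gbp2 was 18.1, 25.7 and 17.8 CPM in WT ND hearts and 11.6, 8.83 and 8.45 CPM in ob/ob ND hearts (-1.09 ± 0.15 SE, adjusted p = 0.00026). On HFD it was 25.5, 26.4 and 24.3 CPM in WT and 13.1, 12.2 and 11.1 CPM in ob/ob hearts (-1.07 ± 0.14 SE, adjusted p = 0.00016). No ob/ob heart reached a WT heart on either diet. Gbp3 showed the same separation, with 17.4, 20.1 and 17.9 CPM in WT HFD and 8.63, 8.43 and 8.65 CPM in ob/ob HFD hearts (-1.11 ± 0.17 SE, adjusted p = 0.00045). Gbp7 was 10.7, 17.6 and 13.3 CPM in WT ND and 6.505, 5.68 and 4.98 CPM in ob/ob ND hearts (-1.28 ± 0.18 SE, adjusted p = 0.00027), and its difference on HFD was -0.62 ± 0.16 SE, adjusted p = 0.015.

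Gbp5 had the largest change on ND, from 6.92, 13.1 and 6.504 CPM in WT to 3.59, 2.44 and 2.53 CPM in ob/ob hearts (-1.62 ± 0.28 SE, adjusted p = 0.0016). WT mouse 2 was the highest of these, and the groups did not overlap. Gbp4 changed by -0.82 ± 0.16 SE, adjusted p = 0.0029 on ND and by -0.84 ± 0.15 SE, adjusted p = 0.0014 on HFD. Gbp6 changed by -1.01 ± 0.28 SE, adjusted p = 0.028 on ND and, not passing, by -0.46 ± 0.25 SE, adjusted p = 0.23 on HFD.

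For the IRG genes of the heart the picture was uneven. Irgm1 was 14.8, 21.9 and 16.4 CPM in WT ND and 16.99, 18.2 and 14.4 CPM in ob/ob ND hearts, which overlap (-0.102 ± 0.14 SE, adjusted p = 0.67). Igtp differed by -0.19 ± 0.18 SE, adjusted p = 0.51 on ND. Iigp1 was 41.9, 48.6 and 38.2 CPM in WT ND and 30.5, 23.6 and 35.98 CPM in ob/ob ND hearts (-0.51 ± 0.14 SE, adjusted p = 0.024), and on HFD the difference was 0.11 ± 0.14 SE, adjusted p = 0.63. Irgm2 passed over both diets (-0.43 ± 0.12 SE, adjusted p = 0.011). Over both diets 7 genes were lower, against 15.5% of all genes, and they were the 6 GBP genes and Irgm2. Without WT ND mouse 2, the count on ND was 5, since Gbp6 (-0.81, adjusted p = 0.11) and Iigp1 (-0.41, adjusted p = 0.093) did not pass. The HFD count fell to 3 when ob/ob HFD mouse 1 or WT HFD mouse 2 was left out. It was 7 without WT ND mouse 2, when Igtp (-0.36, adjusted p = 0.039) and Irgm2 (-0.41, adjusted p = 0.023) passed as well.

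**Figure D3:**
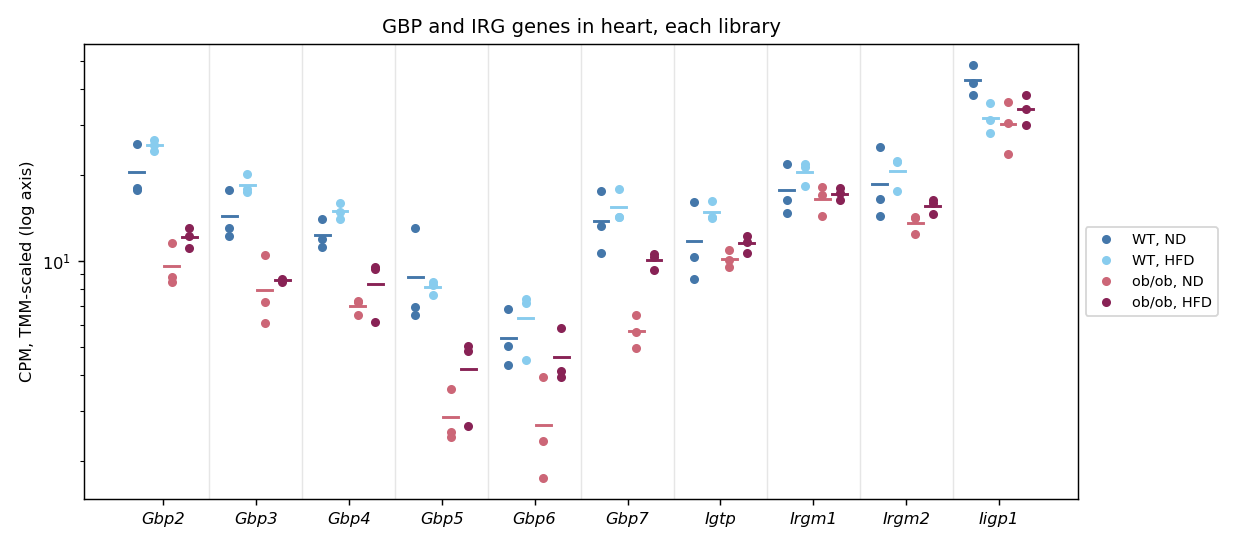
CPM of the 10 genes in each of 12 hearts, on a log axis, with TMM-scaled library sizes; points are mice and short lines group means of 3. Both ob/ob groups lie below both WT groups for Gbp2 and Gbp3, while the Irgm1 points of the ND groups overlap.

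Genes of the list of interferon-gamma induced chemokines and antigen presentation were lower in the same hearts, 11 of 17 on ND and 15 of 17 on HFD, with none higher. On ND the smallest p values were those of the immunoproteasome subunits Psmb9 (-1.38) and Psmb8 (-0.896) and of H2-Eb1 (-1.16), a class II chain. Of 21 type I interferon genes, 11 were lower on ND and 11 on HFD, led by Bst2, which tethers virus particles to the membrane (-0.82 on ND and -1.17 on HFD). Of 16 signalling genes 6 were lower and 1 was higher on ND, the latter the phosphatase Ptpn11 (0.66). Macrophage markers summed to 579, 692 and 527 CPM in WT ND and 452, 359 and 493 CPM in ob/ob ND hearts, and 5 of 18 fell, with Adgre1 at -1.297. Endothelial markers summed to 1139.7 to 1176 CPM in WT ND and 973 to 1208 CPM in ob/ob ND hearts, with 2 of 14 lower. The B cell markers summed to 13.4 to 19.5 CPM and 8.22 to 14.1 CPM, and 1 of 5 fell. The adipocyte, hepatocyte and lymphoid lists had 1 of 4, 0 of 7 and 0 of 1 lower, and none higher. On HFD, macrophage markers summed to 660.4, 565 and 545 CPM in WT and 452, 540.1 and 377 CPM in ob/ob hearts, and 4 of 18 were lower, among them Adgre1 (-0.93), Cx3cr1 (-1.18) and Lyz2 (-0.61). Also lower on HFD were 2 of 14 endothelial markers, Emcn (-0.49) and Kdr (-0.36), the adipocyte marker Car3 (-2.88) and the B cell marker Ighm (-0.74). The part of these cells in the heart results was not tested.

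In aorta, 8 of the 10 genes were lower in ob/ob mice on ND and none was higher, with 15.9% of all 14761 aorta genes called lower. Without WT ND mouse 2, the count was 5 and the median log2 fold change over the 10 genes went from -1.04 to -0.49. It was 4 without ob/ob ND mouse 1 or without ob/ob ND mouse 3. On HFD, 2 genes were lower, against 7.84% of all genes, so with only 10 genes that count is near the background. The HFD count was 4 when WT ND mouse 2 was left out of the shared fit.

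Those 2 genes, Gbp4 and Gbp6, were lower on both diets. Gbp6 was 6.47, 8.21 and 5.73 CPM in WT ND and 1.96, 1.996 and 1.63 CPM in ob/ob ND aortas (-1.87 ± 0.24 SE, adjusted p = 0.00023). On HFD it was 5.53, 4.54 and 3.11 CPM in WT and 1.82, 2.11 and 1.91 CPM in ob/ob aortas (-1.17 ± 0.25 SE, adjusted p = 0.0089). The 6 ob/ob aortas all lay below the 6 WT aortas. Gbp4 was 7.95, 11.9 and 9.66 CPM in WT ND and 4.87, 5.43 and 4.72 CPM in ob/ob ND aortas (-0.98 ± 0.21 SE, adjusted p = 0.0045), and 13.9, 10.2 and 13.6 CPM against 3.94, 6.15 and 5.16 CPM on HFD (-1.31 ± 0.21 SE, adjusted p = 0.0021). Here too the genotypes did not overlap, and the same held for Gbp3, whose difference on HFD did not pass (-0.78 ± 0.27 SE, adjusted p = 0.069). Without WT ND mouse 2 the ND differences were -1.72, adjusted p = 0.00064 for Gbp6 and -0.83, adjusted p = 0.012 for Gbp4.

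For the remaining genes, the WT ND group was spread wide. Gbp2 was 23.9, 85.5 and 34.6 CPM in WT ND and 32.3, 33.3 and 28.8 CPM in ob/ob ND aortas and did not pass (-0.61 ± 0.34 SE, adjusted p = 0.18), and without mouse 2 its direction turned (0.093, adjusted p = 0.72). Irgm2 was 16.2, 38.9 and 11.96 CPM against 8.86, 10.3 and 10.4 CPM (-1.18 ± 0.33 SE, adjusted p = 0.017), and -0.53, adjusted p = 0.044 without mouse 2. Gbp5 had 4.01, 13.98 and 3.51 CPM against 3.27, 3.51 and 1.57 CPM (-1.38 ± 0.49 SE, adjusted p = 0.048), and -0.46, adjusted p = 0.34 without mouse 2. The calls of Gbp5 and Iigp1 were each lost in 9 of the 12 fits that left out 1 aorta. The call also ended without mouse 2 for Irgm1 (-0.38, adjusted p = 0.14) and Iigp1 (-0.29, adjusted p = 0.26), whereas Irgm2, Gbp3 (-0.69, adjusted p = 0.025) and Igtp (-0.69, adjusted p = 0.022) were still called. Over both diets 9 genes were lower, against 19.3% of all genes, and 5 without ob/ob HFD mouse 1. Gbp7 and Irgm1 each lost that call in 10 of the 12 fits that left out 1 aorta.

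**Figure D4:**
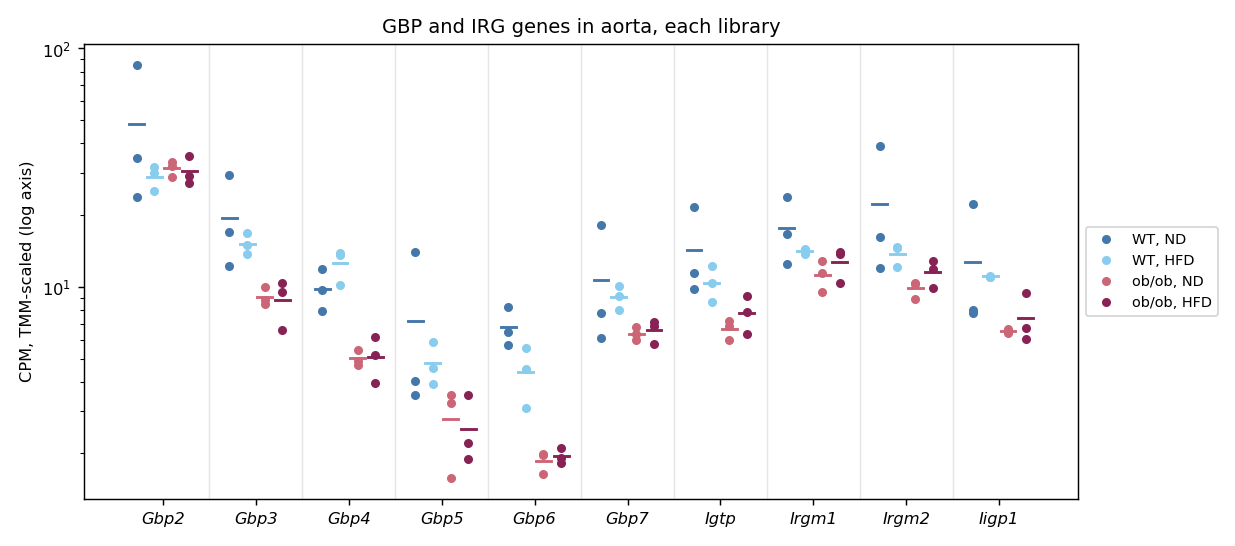
CPM of the 10 genes in each of 12 aortas, on a log axis, with TMM-scaled library sizes; points are mice and short lines group means of 3. One WT ND aorta stands far above the others for Gbp2 and Gbp5, and both ob/ob groups lie below both WT groups for Gbp4 and Gbp6.

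Cell type markers differed in these aortas as well. On ND, 7 of 8 B cell markers were lower in ob/ob mice, with the sums of the 3 WT ND mice as given above and 187, 152 and 219.5 CPM in ob/ob ND mice. Of 19 macrophage markers, 5 were higher and 1 lower, led by Itgax (3.01) and Gpnmb (2.69). Of 10 adipocyte markers 1 was higher (Lep, 7.07) and 3 were lower, among them Cfd (-3.098) and Retn (-1.65). Of 14 endothelial markers 1 was higher (Cldn5, 1.15) and 1 lower (Emcn, -1.28). The lymphoid marker Cd2 (-1.61) and the hepatocyte list's Trf (-0.53) were lower, 1 of 13 and 1 of 4 tested. Among the interferon lists, 12 of 21 type I genes were lower, led by Bst2 (-1.06), Usp18 (-1.91) and Oasl2 (-2.15), and 4 of 19 chemokine and antigen presentation genes were lower and 2 higher. Cxcl10 was one that was higher (1.74). Diet called 0 of the 10 genes in WT aortas (edgeR, 1 at an unadjusted p under 0.05, 0 with DESeq2, and 2 without the low-count filter), with 4.21% of all genes called. The part of these cells in the aorta results was not tested.

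In epididymal fat, 3 of the 10 genes, all GBP genes, were lower in ob/ob mice on ND. Of all 15676 fat genes 23% were called lower, so the count is near the background. Gbp7 was 21.9, 22.7 and 23.9 CPM in WT ND and 16.5, 17.6 and 12.5 CPM in ob/ob ND fat (-0.56 ± 0.13 SE, adjusted p = 0.0039). Gbp3 was 25.6, 25.8 and 25.7 CPM against 14.1, 19.5 and 9.91 CPM (-0.83 ± 0.23 SE, adjusted p = 0.012), and Gbp4 changed by -0.77 ± 0.21 SE, adjusted p = 0.012. These groups did not overlap. The call of Gbp4 was lost without WT ND mouse 1 (-0.51, adjusted p = 0.061). On HFD 0 of 10 genes were called between genotypes (edgeR, 0 also at an unadjusted p under 0.05, and 0 with DESeq2), with 17.6% of all genes called. Over both diets 2 were lower, Gbp3 and Gbp7, with 15.2% of all genes called lower, so this count too is near the background. Gbp3 lost this call in 6 of the 12 fits that left out 1 fat library.

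In the fat of WT mice, 3 of the 10 genes were called lower on HFD and 1 higher. Gbp4 fell from 24.2, 16.5 and 14.5 CPM on ND to 6.74, 7.87 and 10.9 CPM on HFD (-1.11 ± 0.21 SE, adjusted p = 0.0011), and Gbp3 (-0.63 ± 0.23 SE, adjusted p = 0.033) and Gbp2 (-0.49 ± 0.19 SE, adjusted p = 0.046) fell too. Irgm1 rose from 25.1, 25.6 and 25.1 CPM to 41.1, 47.3 and 35.1 CPM (0.705 ± 0.21 SE, adjusted p = 0.013). These 4 of 10 are a smaller share than the 58.9% of all genes called in either direction, so the count is not above the background. The count was 2 when any one of 6 libraries was left out: each WT ND mouse, WT HFD mouse 1 or 2, or ob/ob ND mouse 1. Over the 12 such fits it ranged from 2 to 6. The call of Gbp2 was lost in 8 of 12, without the low-count filter and with DESeq2 size factors. That of Gbp3 was lost in 6 of 12. The calls of Gbp4 and Irgm1 held in all 12 fits. The diet change of Gbp4 differed between genotypes by 0.96 ± 0.303 SE, adjusted p = 0.026, with 19.4% of all genes called in that direction, and the call was lost in 7 of 12 fits.

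The same fat samples differed widely in their cell type markers. Macrophage markers summed to 2285, 2272 and 2206 CPM in WT ND fat and 25917, 24325 and 14687 CPM in WT HFD fat, and 14 of 19 rose. Adipocyte markers summed to 67014, 70816 and 55348 CPM and 4489, 7851 and 15922 CPM, with 9 of 10 lower, and 14 of 14 endothelial markers were lower. In ob/ob ND fat, macrophage markers summed to 8883 to 16668 CPM and adipocyte markers to 16348 to 24048 CPM. The part of these cells in the fat results was not tested.

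In skeletal muscle of ob/ob mice on ND, Gbp2 was higher and Irgm1 lower. These are 2 of 10 genes beside 45% of all 15452 muscle genes, so the count is not above the background. Gbp2 was 8.85, 17.1 and 12.03 CPM in WT ND and 34.2, 22.6 and 30.5 CPM in ob/ob ND muscle (1.202 ± 0.43 SE, adjusted p = 0.043). This call was lost in 7 of the 12 fits that each left out 1 muscle library. Irgm1 was 21.6, 25.9 and 20.9 CPM against 14.9, 12.5 and 15.9 CPM (-0.66 ± 0.16 SE, adjusted p = 0.0099) and was called in all 12. Over both diets Irgm1 (-0.47), Igtp (-0.52) and Irgm2 (-0.42), the 3 regulatory IRG genes, were lower. Of all genes 20.8% were called lower, so 3 of 10 is near the background. On HFD 0 of 10 were called (edgeR, 1 at an unadjusted p under 0.05, and 0 with DESeq2), with 0.0194% of all genes called. This count rests on 1 library, as 2 of the 10 were called without ob/ob HFD mouse 1. The adipocyte markers rose from WT ND to ob/ob ND muscle in 8 of 10 genes, and macrophage markers in 16 of 19, with sums of 264, 480.4 and 388 CPM and 1883, 1887 and 2462 CPM. Their part in the muscle results was not tested.

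In the brain the 10 genes were low. Over both diets, Gbp3 was lower in ob/ob mice in hippocampus (-0.81 ± 0.17 SE, adjusted p = 0.01) and hypothalamus (-0.52 ± 0.15 SE, adjusted p = 0.035), and Gbp2 in hypothalamus (-0.69 ± 0.19 SE, adjusted p = 0.024). In hippocampus the lowest, median and highest of 6 mice were 3.17, 3.66 and 5.12 CPM for Gbp3 in WT and 1.88, 2.21 and 2.78 CPM in ob/ob, with no overlap. In hypothalamus they were 3.08, 4.27 and 4.81 CPM and 2.32, 2.86 and 3.55 CPM, which overlap. These counts of 1 of 10 and 2 of 10 stand beside 7.46% and 8.36% of all genes called lower in hippocampus and hypothalamus. With only 10 genes, they lie near that background. The hypothalamus calls are fragile, lost in 9 of 12 fits without 1 library for Gbp3 and in 4 of 12 for Gbp2, while Gbp3 in hippocampus was called in all 12. Irgm1 leaned the other way in hypothalamus, though it was not called. Its lowest, median and highest were 8.50, 11.15 and 11.82 CPM in WT and 11.92, 12.76 and 14.35 CPM in ob/ob, with no overlap. Of the 10 log2 fold changes over both diets, 5 were above 0 in hypothalamus and 3 in hippocampus. Within a diet, 0 of 10 genes were called in either region (edgeR and DESeq2). Of all genes, 5.3% were called on ND and 2.13% on HFD in hypothalamus, and 3.48% and 1.56% in hippocampus. Without WT ND mouse 1, 1 of the 10 was called on ND in hypothalamus. At an unadjusted p under 0.05 there were 4 of the 10 on ND and 3 on HFD in hypothalamus, and 2 and 1 in hippocampus. The share of all genes at that unadjusted threshold is not given here.

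Gbp3 was lower in ob/ob mice over both diets in 6 of 7 tissues, all but muscle, where its difference was 0.13 ± 0.18 SE, adjusted p = 0.58. No other of the 10 genes was called lower in more than 4 tissues in that comparison. Of the 6 Gbp3 calls, that in fat was lost in 6 of 12 fits without 1 library and that in hypothalamus in 9 of 12. In those 6 tissues 7.46% to 20.7% of all genes were called lower. The tissues come from the same 12 mice, and the share of all genes called lower in as many tissues is not given here. In ob/ob mice, none of the 10 genes was called for diet in any of the 7 tissues (edgeR). At an unadjusted p under 0.05 there were 3 in heart and 0 elsewhere, DESeq2 called 1, in heart, and the fit without the low-count filter called 2, also in heart. In heart all 10 log2 fold changes for diet in ob/ob mice lay above 0, with a median of 0.23. That of Gbp7 was 0.82, adjusted p = 0.18 (edgeR). Among all genes the share called for diet in ob/ob mice was 0% in fat, aorta, muscle, hypothalamus and hippocampus, 0.0219% in heart and 0.913% in liver. In WT mice, none of the 10 was called for diet in heart, muscle or either brain region (edgeR and DESeq2). These calls stand beside 0.256% of all heart genes called and 0% in the other 3 tissues. At an unadjusted p under 0.05 there were 3, 2, 0 and 0 of the 10. Without the low-count filter 1 was called in heart. In muscle 1 was called when ob/ob HFD mouse 1 was left out of the shared fit.

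**Figure D5:**
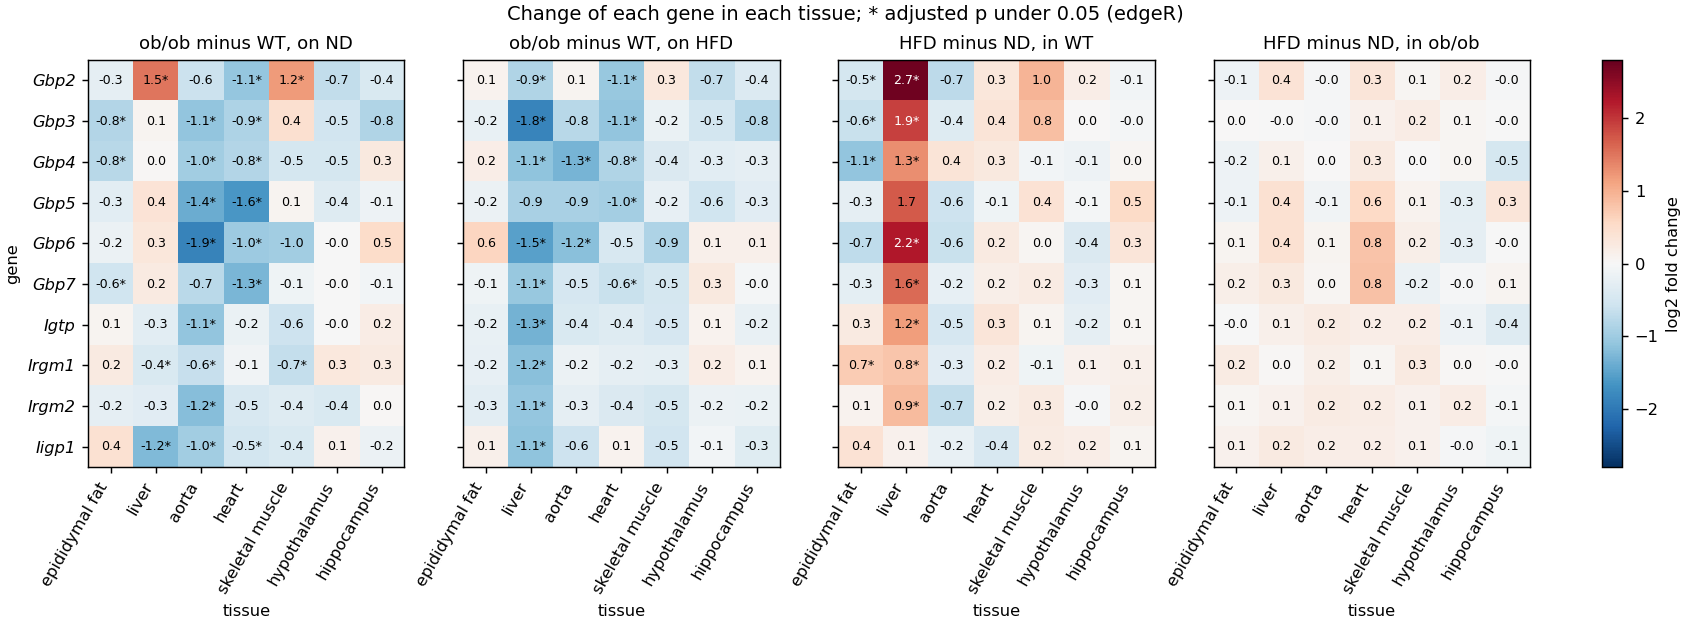
Log2 fold change of the 10 genes (rows) in 7 tissues (columns) for genotype on each diet and for diet in each genotype; red is higher, blue is lower, and an asterisk marks an adjusted p under 0.05 (edgeR). The liver column is red for diet in WT mice and blue for genotype on HFD, the heart and aorta columns are blue for genotype on ND, and no asterisk stands in the panel for diet in ob/ob mice.

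Across the 84 libraries, after each tissue's mean was subtracted, the 10 genes varied together to different degrees. These correlations describe libraries that share mice and groups, and they carry no test. Over the 45 pairs, Pearson's r of log2(CPM + 1) ranged from 0.21 (Gbp2 with Irgm1) to 0.82 (Igtp with Irgm2), with a median of 0.60. The highest pair shares exon bases and near-identical upstream windows. Gbp3 and Gbp7 followed the mean of the other 9 genes most closely, with r of 0.85 and 0.84, and Iigp1 least, with 0.55. Within liver alone Gbp3 reached 0.97 over 12 libraries and Iigp1 0.54. In the brain the genes did not all vary together: r with the other 9 was -0.51 in hypothalamus and -0.57 in hippocampus for Irgm1, -0.41 in hypothalamus for Gbp7, -0.15 and -0.27 in these regions for Gbp6, and -0.25 in hippocampus for Gbp4. Some levels there are low, with WT medians in hypothalamus of 1.19 CPM for Gbp4, 0.954 for Gbp6 and 1.24 for Iigp1. Few counts limit what r in the brain can show for such genes.

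Among 10485 other genes with a mean of at least 1 CPM in every tissue, those with the highest r to the mean of the set included Ifit1 (0.83), Isg15 (0.82), Uba7 (0.80), Trim12c, Cmpk2, Herc6, Psmb9, Irf9 and Rnf213 (0.74). Isg15 is a ubiquitin-like protein and Uba7 the enzyme that activates it, and Herc6 attaches it to targets in mice. Irf9 is a transcription factor of the type I interferon pathway. The likeness varied by tissue: Isg15 had r of 0.96 in liver, 0.89 in heart and 0.58 in fat, and Uba7 had 0.95 in liver and 0.10 in hippocampus.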

How the data were processed

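The deposited table holds whole-number counts of read pairs per Ensembl gene, made by the authors with featureCounts 1.5.1 over exons of a GRCm38 annotation without a strand option, per the file headers. The submitters' processing notes list Trimmomatic 0.36, HISAT2 2.0.5, the build GRCm38 and featureCounts in another version, 1.5.0-p2. The header shows no option for reads that fit several genes, so near-identical genes can be undercounted. Without strand, overlapping genes cannot be told apart.

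Each tissue was fitted by itself in edgeR 4.0.16 (R 4.3.3): filterByExpr (smallest count 10, smallest total 15), TMM scaling, a mean for each of 4 groups of 3 mice and the two-sided quasi-likelihood test, with Benjamini-Hochberg adjustment over all genes of a tissue and contrast and a threshold of 0.05. A standard error is the log2 fold change divided by the square root of F. CPM values use TMM-scaled library sizes within a tissue, and levels between genes and tissues use TMM over 84 libraries and exon length. The fits were also run on counts simulated from the same kind of model with known changes. Such counts cannot show how the fits behave with libraries that stand apart. DESeq2 1.42.0, its size factors, no filter, a block for mouse number and each library left out were tried. The genes named were all 10, up to 3 called genes with the smallest p of each other list where at least 5 of the 10 were called, and the 10 most correlated genes, of which 1 is not reported here. The members, gene lists and tests were chosen with earlier results of these data known. Depth ranged from about 10499500 to 17040800 counts. Replicates are libraries of different mice. Of the sample titles, 6 spell the diet HDF and were read as HFD, as their diet label gives it. The deposited tables of body weight, body composition and blood values were not used. Sequence windows are from RefSeq and were searched on both strands.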

Additional observations from a re-analysis of the deposited data

Results flagged for a closer look

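The diet change in liver differed between genotypes, by a test of the difference itself, for Gbp2 (-2.35, ob/ob minus WT on the log2 scale), Gbp3 (-1.92), Gbp6 (-1.82), Irgm1 (-0.74) and Irgm2 (-0.77). In epididymal fat it differed for Gbp4 (0.96). With 1 library left out, the calls of Gbp3 and Gbp6 in liver and of Gbp4 in fat were lost in 5, 9 and 7 of 12 fits.

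Other results went in opposite directions in different tissues, with no overlap of the libraries compared in each, and the difference between tissues was not tested. For ob/ob against WT on ND, Gbp2 was 1.498 in liver and 1.202 in skeletal muscle but -1.09 in heart. For diet in WT mice, Gbp2 was -0.49 in fat and 2.73 in liver, Gbp3 was -0.63 and 1.91, and Gbp4 was -1.11 and 1.296 in the same tissues. Some of these calls are fragile in the 12 fits per tissue that each left out 1 library. Gbp2 lost its call in 7 fits in muscle and in 8 in fat, Gbp3 in 6 in fat and Gbp4 in 3 in liver. The share of all genes with such opposite results is not given here.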

How the results depend on the processing

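No log2 fold change that was called changed sign under any alternative tried. Summed over 7 tissues, the calls among 70 pairs of gene and tissue were 23 for genotype on ND, 16 for genotype on HFD, 29 for genotype over both diets, 12 for diet in WT mice, 0 for diet in ob/ob mice and 6 for the interaction. The shares of all genes called in either direction differed widely between tissues, so these totals by themselves do not set the 10 genes apart. In the same order the shares were 3.48% to 48.2%, 0.0194% to 18.5%, 13.9% to 48.6%, 0% to 58.9%, 0% to 0.913% and 0% to 40.1%. With 1 library left out the totals ranged from 19 to 25, 14 to 18, 25 to 30, 10 to 14, 0 to 0 and 4 to 9. Each of these fits left out 1 library of 1 tissue, never all libraries of a mouse. Leaving out WT ND mouse 2 took the ND count from 8 to 5 in aorta and from 7 to 5 in heart. For diet in ob/ob mice, DESeq2 called 1 and the fit without a low-count filter called 2, and the cause was not tested. In liver, genotype over both diets called 5 of 10 genes with the filter and 8 without it. With a replicate block for the mouse number the counts were 21, 17, 28, 12, 0 and 5. The number does not pair the libraries: same-number libraries of different groups had correlations of their deviations from -0.67 to 0.48, and 33 of 84 libraries were closest to their own number. The tissue with the highest level was as reported for 8 to 9 of 10 genes with 1 mouse left out, 7 with library totals and 10 with DESeq2 size factors. Gbp4, Gbp5 and Gbp6 had few counts in liver and brain, and Iigp1 had few in brain, which limits what could be called there. With 3 mice a group, calls near the threshold often rest on 1 library.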

Other observations

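Other genes of the 2 families, counted from a list of 18, moved in part with the 10. In WT livers on HFD, 7 of 14 tested rose and none fell, led by Gbp10 (2.88 on the log2 scale, adjusted p = 4.7e-05), Tgtp1 (3.27, adjusted p = 0.00033) and Gbp9 (1.77, adjusted p = 0.00079). Of all liver genes 12% were called higher there. Gbp10 shares sequence with Gbp6, so its values are uncertain too and are not fully separate from those of Gbp6. In ob/ob livers on HFD, 8 of 14 were lower, beside 9.85% of all liver genes, with Gbp10 at -3.75 and Gm4951 at -0.900.

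Irgq, a relative of the IRG genes, went the other way. It was higher in ob/ob mice in aorta on ND (0.81, adjusted p = 0.0026) and in heart on HFD (0.51, adjusted p = 0.0053). In the same aortas 6 of 15 of these genes were lower, led by Gbp11 (-2.35), beside 15.9% of all aorta genes. In the same hearts Tgtp2 was lower (-1.51).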
